A study of Mus musculus with 12 samples.

Results

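The alpha and mu classes of glutathione S-transferases (GSTs) were followed across 4 groups of siRNA-treated primary mouse hepatocytes. The alpha class was represented by Gsta1, Gsta2, Gsta3 and Gsta4, and the mu class by Gstm1, Gstm2, Gstm3, Gstm4, Gstm6 and Gstm7. These 10 genes, out of 55385 gene identifiers in the deposited tables, were taken by name, and symbols were assigned from the Ensembl identifiers. Each class was also read as 1 sum, because several members have nearly the same sequence and share reads.

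Glutathione S-transferases are cytosolic enzymes that join the tripeptide glutathione to reactive, electrophilic compounds. The conjugates are then exported from the cell and processed further into mercapturates. Hepatocytes hold the alpha and mu enzymes in large amounts, as dimers formed within a class. Many genes of both classes are induced by the transcription factor NRF2 (gene Nfe2l2), which KEAP1 holds at low levels until electrophiles or oxidants modify it.

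Hepatocytes were freshly isolated from 3 mice, plated on collagen, and sampled after 48 h of siRNA treatment. In siCon the cells received a control siRNA, in siHnf4a one that targets Hnf4a, and in siCebpa one that targets Cebpa. The fourth group, siHnf4a siCebpa, received the last 2 together and is called here the double knockdown. Each group held 3 libraries, 1 per mouse by the number in its title. The medium of all groups was Williams' E, to which serum (FBS, 10%), dexamethasone (100 nM), L-glutamine (2 mM) and ITS (5%) were added. Dexamethasone was thus present in the controls too. The sources used here give no strain, sex or age of the mice, and no siRNA sequence or dose. HNF4A, a nuclear receptor, and C/EBPα, a basic leucine zipper factor, both maintain hepatocyte gene expression.

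Estimated counts per library summed to 22453445 to 25008195. Hnf4a fell in siHnf4a by 2.09 ± 0.28 on the log2 scale (SE, edgeR adjusted p = 0.000953) and in the double knockdown by 2.68 ± 0.29 (adjusted p = 0.000233). Cebpa fell in siCebpa by 2.68 ± 0.13 (edgeR adjusted p = 7.05e-06) but in the double knockdown by 1.03 ± 0.12 (adjusted p = 0.000441). The loss of Cebpa was therefore smaller in the double knockdown than in siCebpa, with a difference of 1.65 ± 0.13 (adjusted p = 5.11e-05). Of the hepatocyte markers, 10 of 10 were detected, with Trf the highest and Tat the lowest in siCon. Their summed level (TPM, a level per transcript length, scaled to the same total in every library) was 32573 to 39588 in the controls, 24217 to 26272 under siHnf4a, 27853 to 31335 under siCebpa and 17271 to 20452 in the double knockdown. Without Trf, a sum taken after its values were seen, the other 9 gave 19164.5 to 19296.5 TPM in the controls, 19855 to 22658 under siHnf4a, 12995.5 to 19520.2 under siCebpa and 14480 to 16102 in the double knockdown, so the lower siHnf4a sum was that of Trf. In the same order of groups, Kupffer cell markers (10 of 12 with at least 10 counts in a library) summed to 114 to 347, 129 to 556, 69.3 to 446 and 128 to 485 TPM. Nearly all of that was Cd68, while Clec4f reached 1.61 TPM at most and Timd4 was at or near 0. Stellate cell markers (10 of 10) summed to 73.5 to 81.4, 47.4 to 63.9, 42.7 to 70.9 and 43.0 to 69.1 TPM, and endothelial markers (8 of 8) to 30.4 to 40.1, 33.9 to 37.0, 22.4 to 29.1 and 26.5 to 36.4 TPM. Cholangiocyte markers (5 of 6, Cftr at or near 0) summed to 66.5 to 282, 41.8 to 180, 24.7 to 108 and 27.2 to 172 TPM, and lymphocyte markers (1 of 6) to at most 2.01 TPM. Most of the cholangiocyte sum was Spp1 (mean of 156 TPM in the controls), while Epcam reached 1.40 and Krt7 0.21 TPM at most. The stellate sum and the hepatocyte sum with Trf lay below every control library in all knockdown libraries, and the endothelial sum did so under siCebpa. The part of any marker list in the results below was not tested. In bulk RNA a change in the number of cells of a type cannot be told apart from a change in the RNA each cell holds.

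Both classes were higher in all 3 knockdown groups than in siCon. The alpha sum stood at 568, 523 and 711 TPM in siCon of mice 1, 2 and 3, at 2049, 2533 and 3450 TPM in siHnf4a, at 1314, 1374 and 2191 TPM in siCebpa and at 2255, 2899.5 and 3311 TPM in the double knockdown. The mu sum stood at 669, 629 and 458 TPM in siCon, at 2341, 2423 and 2524 TPM in siHnf4a, at 1307, 902 and 926 TPM in siCebpa and at 2398, 2446 and 2146.5 TPM in the double knockdown. No knockdown library of either sum was as low as any siCon library. For the mu sum the siCebpa libraries also lay below every siHnf4a and double knockdown library, whereas for the alpha sum siCebpa of mouse 3 lay above siHnf4a of mouse 1. Both classes together took 0.119% ± 0.0045 of all TPM in the controls (SD, n = 3), 0.267% ± 0.042 under siCebpa, 0.511% ± 0.080 under siHnf4a and 0.515% ± 0.044 in the double knockdown.

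**Figure D1:**
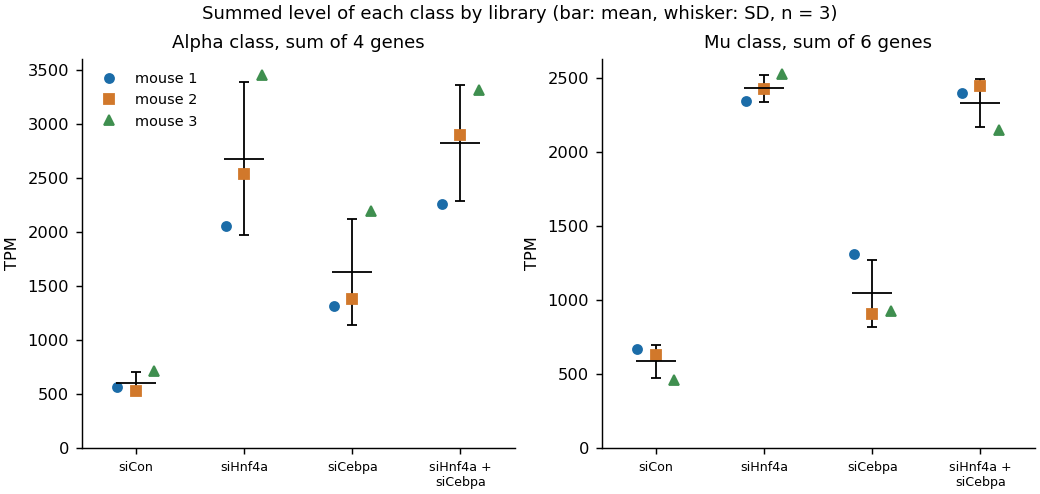
Summed TPM (linear axis from 0) of the 4 alpha genes and the 6 mu genes in each of the 12 libraries, with symbols for the mouse, and the mean and SD of each group of 3. The siCon libraries lie between 458 and 711 TPM in both panels, and every knockdown library lies above them.

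The rise of the sums was tested in a fit in which each class was 1 row of summed counts. Fold changes are log2 differences of TMM-scaled counts with their standard error, and p-values were adjusted over all genes tested with a threshold of 0.05. Against siCon the alpha sum rose by 2.11 ± 0.23 in siHnf4a (4.32-fold, edgeR adjusted p = 0.000266), by 1.52 ± 0.23 in siCebpa (2.88-fold, 0.00663) and by 2.19 ± 0.23 in the double knockdown (4.55-fold, 0.000212). The mu sum rose by 2.12 ± 0.18 in siHnf4a (4.35-fold, edgeR adjusted p = 4.83e-05), by 1.06 ± 0.17 in siCebpa (2.09-fold, 0.00974) and by 2.03 ± 0.18 in the double knockdown (4.09-fold, 5.78e-05). Each change had 1 direction in 3 of 3 mice. The siCebpa call for the mu sum was lost without siCon of mouse 2 (adjusted p = 0.0578) or of mouse 3 (0.054). With only siCebpa and siCon in the fit, neither siCebpa call passed (adjusted p = 0.0559 for alpha and 0.0912 for mu). Both siCebpa calls held with the mouse as a block (edgeR adjusted p = 7.72e-05 for alpha and 0.00134 for mu).

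In siHnf4a, 9 of the 10 members rose, beside 7.24% of all 15090 genes tested that rose. In siCebpa, 6 members rose (background 2.94%), and in the double knockdown 8 rose (background 6.9%). The estimate was above 0 for 10 of 10 members in each of these 3 comparisons, which share the siCon libraries. The median log2 fold change over the members was 0.93 for siCebpa, 1.67 for siHnf4a and 1.60 for the double knockdown, and over all genes tested it was 0.00 in each. In TMM-scaled CPM, every library lay above every siCon library for 10 members in siHnf4a (16.8% of all genes tested), 8 in siCebpa (13.6%) and 9 in the double knockdown (16.5%). In TPM these counts were 10, 6 and 9, and the share of all genes was not counted in TPM. A fit with the mouse as a block gave 10, 9 and 10 members that rose, where 14.5%, 8.73% and 13.8% of all genes rose. The count in siCebpa was 2 without siCon of mouse 2 or without siCebpa of mouse 3, and 1, Gstm1, with only siCebpa and siCon in the fit. It was 4 with limma-trend on TPM, where Gsta3 (adjusted p = 0.0614) and Gstm4 (0.131) did not pass.

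**Figure D2:**
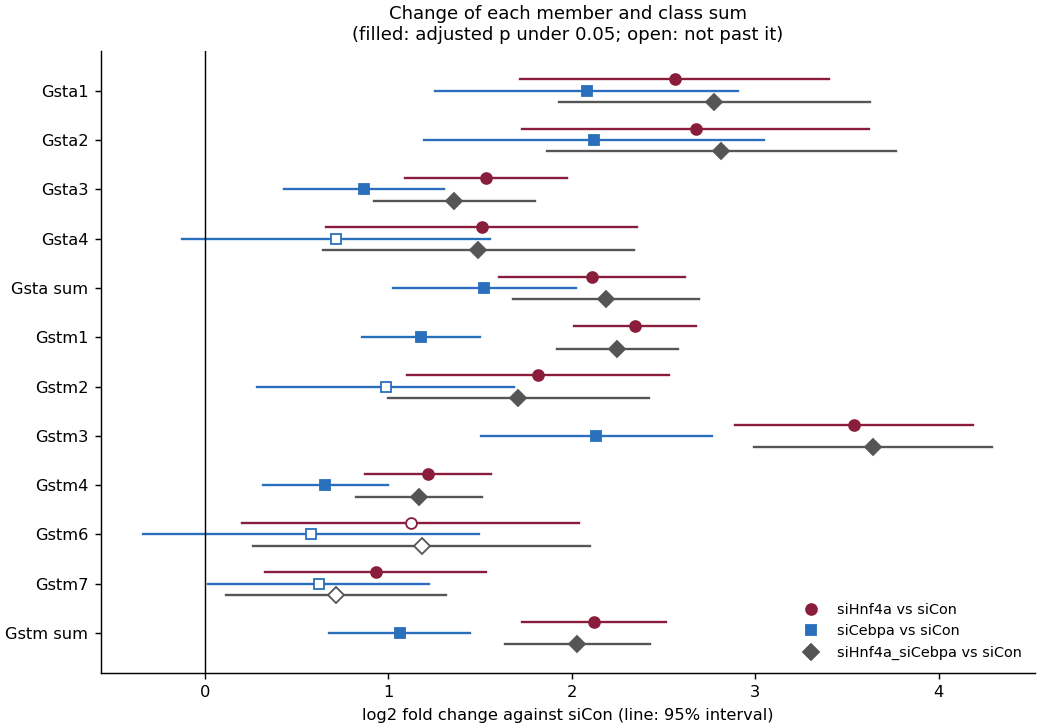
Log2 fold change against siCon with its 95% interval for the 10 members and the 2 class sums in siHnf4a, siCebpa and the double knockdown. Filled symbols passed the adjusted p threshold of 0.05. Gstm3 shows the largest values of the 10 members (3.54 in siHnf4a and 3.64 in the double knockdown), and the open symbols are those of Gsta4, Gstm2, Gstm6 and Gstm7.

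The alpha genes Gsta1, Gsta2 and Gsta4 lie on chromosome 9 and Gsta3 on chromosome 1 (GRCm38). Gsta1 (ENSMUSG00000074183.3) spans chr9:78230656-78242684 on the plus strand, and Gsta2 (ENSMUSG00000057933.10) spans chr9:78331018-78355788 on the minus strand. Between them lie 2 further annotated protein-coding genes of near-identical sequence, Gm3776 (chr9:78257129-78269166) and Gm10639 (chr9:78289923-78305525), both on the plus strand. The coding sequences of Gsta1 and Gm3776 differ at 2 of 669 bases and are 99.7% identical, those of Gsta1 and Gsta2 are 98.0% identical, and those of Gsta1 and Gsta3 are 74.1% identical. Of the words of 31 bases in annotated Gsta1 transcripts, 7.14% occur in no other gene, while 80.3% occur also in Gm3776, 56.6% in Gsta2 and 47.5% in Gm10639. That share was 39.3% for Gsta2, 97.3% for Gsta3 and 100% for Gsta4. The following 60 coding bases are the stretch of that length with the most positions that differ among Gsta1, Gm3776, Gm10639 and Gsta2. They are positions 469 to 528 from the A of the start codon (GENCODE M21, GRCm38, coding strand). Capitals mark the 6 positions that differ among these 4 genes.
Gsta1: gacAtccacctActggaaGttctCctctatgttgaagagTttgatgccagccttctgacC
Gm3776: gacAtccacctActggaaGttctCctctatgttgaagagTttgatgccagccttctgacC
Gm10639: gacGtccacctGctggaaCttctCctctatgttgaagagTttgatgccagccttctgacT
Gsta2: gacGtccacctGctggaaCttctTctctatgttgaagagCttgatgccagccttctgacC
Over this stretch Gsta1 and Gm3776 are the same, so a read from it cannot be assigned to either.

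Gsta1 encodes an alpha class transferase subunit known to be inducible by xenobiotics in mouse liver. Its level was 166, 187 and 304 TPM in siCon of mice 1, 2 and 3, 855, 1176 and 1824 TPM in siHnf4a, 569, 673 and 1211 TPM in siCebpa and 1037, 1505 and 1866 TPM in the double knockdown. All 9 knockdown libraries lay above all 3 siCon libraries, and the knockdown groups overlapped each other. Gsta1 rose 5.90-fold in siHnf4a (2.56 ± 0.38, edgeR adjusted p = 0.00162), 4.23-fold in siCebpa (2.08 ± 0.38, 0.0151) and 6.86-fold in the double knockdown (2.78 ± 0.39, 0.00103). Summed with Gsta2, Gm3776 and Gm10639, a sum chosen after seeing how much sequence they share, the changes were 2.49 ± 0.39, 1.98 ± 0.38 and 2.67 ± 0.39, all past the threshold (edgeR adjusted p from 0.00145 to 0.0212). The siCebpa call of Gsta1 was lost without siCon of mouse 2 (adjusted p = 0.0892) or siCebpa of mouse 3 (0.054). It held with the mouse as a block (2.05 ± 0.10, edgeR adjusted p = 2.74e-06).

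Gsta2 encodes the closely related alpha subunit. Its level was 56.4, 78.0 and 127 TPM in siCon, 360, 552 and 748 TPM in siHnf4a, 183, 303 and 516 TPM in siCebpa and 420, 660 and 719 TPM in the double knockdown. Here too every knockdown library was above every siCon library. Gsta2 rose by 2.68 ± 0.43 in siHnf4a (6.39-fold, edgeR adjusted p = 0.00251), by 2.12 ± 0.42 in siCebpa (4.35-fold, 0.022) and by 2.81 ± 0.43 in the double knockdown (7.04-fold, 0.00186). The siCebpa call was lost without the same 2 libraries as for Gsta1 (adjusted p = 0.106 and 0.0811). It held with the mouse as a block (2.08 ± 0.13, edgeR adjusted p = 1.54e-05).

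Gsta3 (ENSMUSG00000025934.15, chr1:21240589-21265661, plus strand) encodes an alpha subunit known in mice for conjugating aflatoxin epoxide. Its level was 305, 212 and 197 TPM in siCon, 702, 680 and 663 TPM in siHnf4a, 492, 347 and 341 TPM in siCebpa and 667, 612 and 519 TPM in the double knockdown. The siCebpa libraries lay between siCon and the other 2 groups with no overlap on either side. Gsta3 rose by 1.53 ± 0.20 in siHnf4a (edgeR adjusted p = 0.000768), by 0.87 ± 0.20 in siCebpa (0.0367) and by 1.36 ± 0.20 in the double knockdown (0.00138). The siCebpa call was close to the threshold and was lost without any 1 library other than siCon of mouse 1 (adjusted p up to 0.165, without siCon of mouse 2). It held with the mouse as a block (0.87 ± 0.10, edgeR adjusted p = 0.000574). An antisense gene, Gm28836, overlaps Gsta3 on the opposite strand, and whether counting used strand is not given in the sources used here.

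Gsta4 (ENSMUSG00000032348.6, chr9:78182774-78209349, plus strand) encodes the alpha subunit that prefers 4-hydroxynonenal, a product of lipid peroxidation. Its level was 40.2, 45.3 and 82.1 TPM in siCon, 133, 124.6 and 215 TPM in siHnf4a, 69.8, 50.9 and 122.1 TPM in siCebpa and 130, 122.4 and 207 TPM in the double knockdown. siCon and siCebpa overlapped, while siHnf4a and the double knockdown lay above both, the double knockdown of mouse 2 by little. Gsta4 rose by 1.51 ± 0.39 in siHnf4a (edgeR adjusted p = 0.0248) and by 1.49 ± 0.39 in the double knockdown (0.0259). The siHnf4a call was lost without siCon of mouse 1 or 2 or siHnf4a of mouse 3 (adjusted p = 0.0707, 0.102 and 0.0827), and the double knockdown call without siCon of mouse 1 or 2 or the double knockdown of mouse 3 (0.0775, 0.104 and 0.0901). In siCebpa the difference was 0.72 ± 0.38 and did not pass (edgeR adjusted p = 0.325). Blocking on the mouse gave 0.69 ± 0.11, which passed (adjusted p = 0.00289).

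**Figure D3:**
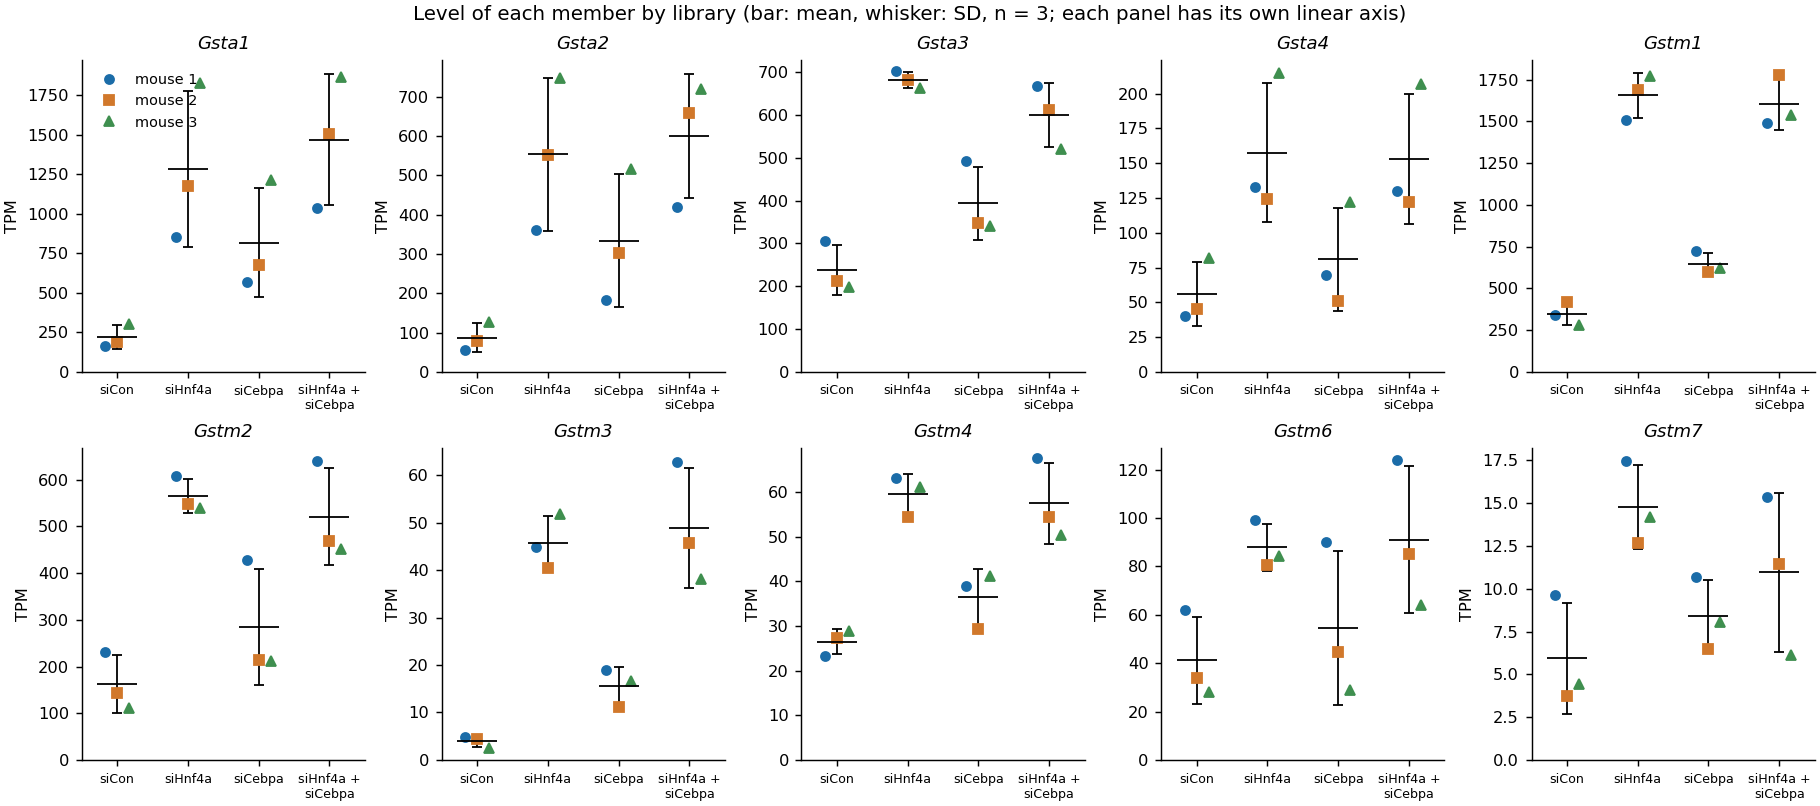
TPM of each member (linear axes from 0, 1 per gene) in the 12 libraries, with symbols for the mouse, and the mean and SD of each group of 3. For Gsta1, Gsta2 and Gsta4 mouse 3 (triangles) is the highest in all 4 groups, and for Gsta3, Gstm2, Gstm6 and Gstm7 mouse 1 (circles) is.

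The 6 mu genes lie side by side on the minus strand of chromosome 3, in a block from 107926334 to 108044894 (GRCm38) in rising coordinates Gstm7, Gstm6, Gstm3, Gstm2, Gstm1 and Gstm4. They differ more in sequence than Gsta1, Gm3776, Gm10639 and Gsta2 do among themselves. The coding sequence of Gstm1 is 89.5% identical to that of Gstm3, 85.9% to that of Gstm2 and 80.1% to that of Gstm4. Words of 31 bases found in no other gene made up 71.2% of those of Gstm1, 62.3% of Gstm3, 87.8% of Gstm2, 90.4% of Gstm6, 96.7% of Gstm4 and 97.4% of Gstm7. The last 60 coding bases before the stop codon are shown, chosen as the gap-free stretch of that length with the most positions that differ. Capitals mark the 35 positions that differ among the 6 genes (GENCODE M21, coding strand).
Gstm1: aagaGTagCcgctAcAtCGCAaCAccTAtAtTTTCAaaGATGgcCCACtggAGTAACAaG
Gstm2: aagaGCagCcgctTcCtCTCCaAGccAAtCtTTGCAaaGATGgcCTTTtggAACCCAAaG
Gstm3: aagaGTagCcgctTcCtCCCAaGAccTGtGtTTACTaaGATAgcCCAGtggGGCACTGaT
Gstm4: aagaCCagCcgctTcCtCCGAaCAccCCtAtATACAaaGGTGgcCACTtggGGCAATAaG
Gstm6: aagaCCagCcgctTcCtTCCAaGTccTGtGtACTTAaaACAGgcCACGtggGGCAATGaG
Gstm7: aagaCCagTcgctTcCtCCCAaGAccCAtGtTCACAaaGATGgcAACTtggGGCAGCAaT
Against Gstm1 the other genes differed at 16 (Gstm3) to 23 (Gstm6) of these 60 bases. Over all aligned coding bases Gstm1 and Gstm3 differed at 69 of 654.

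Gstm1 (ENSMUSG00000058135.12, chr3:108012255-108017973) encodes the main mu subunit of mouse liver. It was the most abundant member in siCon, siHnf4a and the double knockdown by mean TPM. Its level was 338, 417 and 283 TPM in siCon, 1509, 1688 and 1773 TPM in siHnf4a, 721, 596 and 619 TPM in siCebpa and 1489, 1779 and 1536 TPM in the double knockdown. The siCebpa libraries stood apart from siCon below and from the other 2 groups above. Gstm1 rose 5.08-fold in siHnf4a (2.35 ± 0.15, edgeR adjusted p = 2.15e-05), 2.26-fold in siCebpa (1.18 ± 0.15, 0.00255) and 4.75-fold in the double knockdown (2.25 ± 0.15, 2.01e-05).

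Gstm3 (ENSMUSG00000004038.9, chr3:107963696-107969283), a minor mu gene here, had the lowest mean level in siCon and the largest fold change of the members. Its level was 4.90, 4.38 and 2.57 TPM in siCon, 44.8, 40.3 and 51.8 TPM in siHnf4a, 18.9, 11.1 and 16.5 TPM in siCebpa and 62.7, 45.8 and 38.0 TPM in the double knockdown. Behind these levels stood 47.2 to 1262 estimated counts per library. The 3 steps from siCon to siCebpa to the other groups did not overlap. Gstm3 rose 11.6-fold in siHnf4a (3.54 ± 0.29, edgeR adjusted p = 4.18e-05), 4.39-fold in siCebpa (2.13 ± 0.29, 0.00376) and 12.5-fold in the double knockdown (3.64 ± 0.29, 3.95e-05). With only siCebpa and siCon in the fit its siCebpa call was lost (adjusted p = 0.0588), while it held with the mouse as a block (2.12 ± 0.23, edgeR adjusted p = 0.000345). Gstm3 shares 15.2% of its 31-base words with Gstm1, whose level was far higher.

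Gstm2 (ENSMUSG00000040562.12, chr3:107981702-107986453) encodes a mu subunit. Its level was 231, 143 and 112 TPM in siCon, 607, 548 and 539 TPM in siHnf4a, 427, 214 and 212 TPM in siCebpa and 640, 470 and 452 TPM in the double knockdown. siCon of mouse 1 lay above siCebpa of mice 2 and 3, while siHnf4a and the double knockdown lay above all siCon and siCebpa libraries. Gstm2 rose by 1.82 ± 0.32 in siHnf4a (3.52-fold, edgeR adjusted p = 0.00463) and by 1.71 ± 0.32 in the double knockdown (3.27-fold, 0.00577). In siCebpa the difference of 0.99 ± 0.32 did not pass (adjusted p = 0.109), passed with the mouse as a block (0.97 ± 0.15, adjusted p = 0.00245), and passed without siCon of mouse 1 (0.039).

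Gstm4 (ENSMUSG00000027890.17, chr3:108040408-108044894) also encodes a mu subunit. Its level was 23.3, 27.4 and 28.9 TPM in siCon, 63.1, 54.4 and 61.0 TPM in siHnf4a, 39.0, 29.3 and 41.1 TPM in siCebpa and 67.6, 54.4 and 50.4 TPM in the double knockdown. The siCebpa libraries began just above the siCon range and ended below the other 2 groups. Gstm4 rose by 1.22 ± 0.16 in siHnf4a (edgeR adjusted p = 0.00069), by 0.66 ± 0.16 in siCebpa (0.0405) and by 1.16 ± 0.16 in the double knockdown (0.000832). Leaving out 1 library ended the siCebpa call in 10 of 12 cases (adjusted p up to 0.15, without siCon of mouse 2), siCebpa of mouse 2 and the double knockdown of mouse 1 being the exceptions. The call held with the mouse as a block (0.64 ± 0.13, edgeR adjusted p = 0.00797).

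Gstm6 (ENSMUSG00000068762.11, chr3:107938847-107943749) and Gstm7 (ENSMUSG00000004035.12, chr3:107926334-107931817) showed the smallest changes in siHnf4a. The level of Gstm6 was 61.8, 33.9 and 28.2 TPM in siCon, 99.0, 80.5 and 84.3 TPM in siHnf4a, 89.9, 44.8 and 28.9 TPM in siCebpa and 124, 85.2 and 63.9 TPM in the double knockdown. siCon and siCebpa overlapped widely, with mouse 1 the highest in every group. Gstm6 did not pass in siHnf4a (1.12 ± 0.42, edgeR adjusted p = 0.0996), in siCebpa (0.58 ± 0.41, 0.485) or in the double knockdown (1.18 ± 0.42, 0.0864). Blocking on the mouse, the first and the last passed (adjusted p = 0.000856 and 0.000823), and the siCebpa difference did not (0.0776). Without siCon of mouse 1 the same 2 differences passed as well (0.0414 and 0.037), as they did without siCebpa of mouse 1 (0.0357 and 0.03).

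The level of Gstm7 was 9.62, 3.74 and 4.42 TPM in siCon, 17.5, 12.7 and 14.2 TPM in siHnf4a, 10.7, 6.49 and 8.04 TPM in siCebpa and 15.4, 11.5 and 6.11 TPM in the double knockdown. It was the only member whose double knockdown libraries overlapped siCon in TPM, through mouse 3. Gstm7 rose by 0.93 ± 0.27 in siHnf4a (edgeR adjusted p = 0.0439), a call that was lost in 7 of 12 fits that left out 1 library (adjusted p up to 0.167, without siCon of mouse 2). It did not pass in siCebpa (0.62 ± 0.27, adjusted p = 0.232) or in the double knockdown (0.71 ± 0.27, 0.111), and passed with the mouse as a block in both (0.0291 and 0.00998). The double knockdown difference also passed without the double knockdown library of mouse 3 (0.0493).

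The order of the members by mean TPM changed between groups. In siCon it ran Gstm1 (346), Gsta3 (238), Gsta1 (219), Gstm2 (162), Gsta2 (87.2), Gsta4 (55.9), Gstm6 (41.3), Gstm4 (26.5), Gstm7 (5.93) and Gstm3 (3.95). Every pair of neighbours in this order overlapped over the 3 mice except Gstm4 and Gstm7. In siHnf4a it ran Gstm1 (1656), Gsta1 (1285), Gsta3 (682), Gstm2 (565), Gsta2 (553), Gsta4 (157), Gstm6 (87.9), Gstm4 (59.5), Gstm3 (45.7) and Gstm7 (14.8), and there only Gstm1 with Gsta1 and Gstm2 with Gsta2 overlapped. In siCebpa Gsta1 (818) had the highest mean, in a range that overlapped that of Gstm1 (646). In the double knockdown Gstm1 (1601) and Gsta1 (1469) again overlapped, as did Gsta3 (599.6) and Gsta2 (599.5).

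The members took different shares of their class. Gsta1 made up 35.9% ± 6.8 of the alpha TPM in the controls (SD, n = 3), 47.0% ± 5.6 under siHnf4a, 49.2% ± 6.0 under siCebpa and 51.4% ± 5.2 in the double knockdown. Gsta3 made up 40.7% ± 13.0, 26.8% ± 7.5, 26.1% ± 10.96 and 22.1% ± 7.0 in the same groups. Among the 4 members, the largest alpha share by mean was that of Gsta3 in siCon and of Gsta1 in the knockdowns. Ranges over mice overlapped between siCon and the knockdowns for Gsta3. For Gsta1, siCon (up to 42.8%) overlapped siHnf4a (from 41.7%). These shares leave out Gm3776 and Gm10639, and that of Gsta1 depends on how reads were split. In siCon, Gsta1, Gsta2, Gm3776 and Gm10639 together had a mean of 496 TPM, beside 238 TPM for Gsta3. Gstm1 held 59.5% ± 8.1 of the mu TPM in the controls, 68.1% ± 3.2 under siHnf4a, 62.7% ± 6.5 under siCebpa and 68.8% ± 5.9 in the double knockdown. Gstm3 went from 0.663% ± 0.091 to 1.88% ± 0.20, 1.49% ± 0.28 and 2.09% ± 0.46, without overlap with siCon. These shares were described and not tested.

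**Figure D4:**
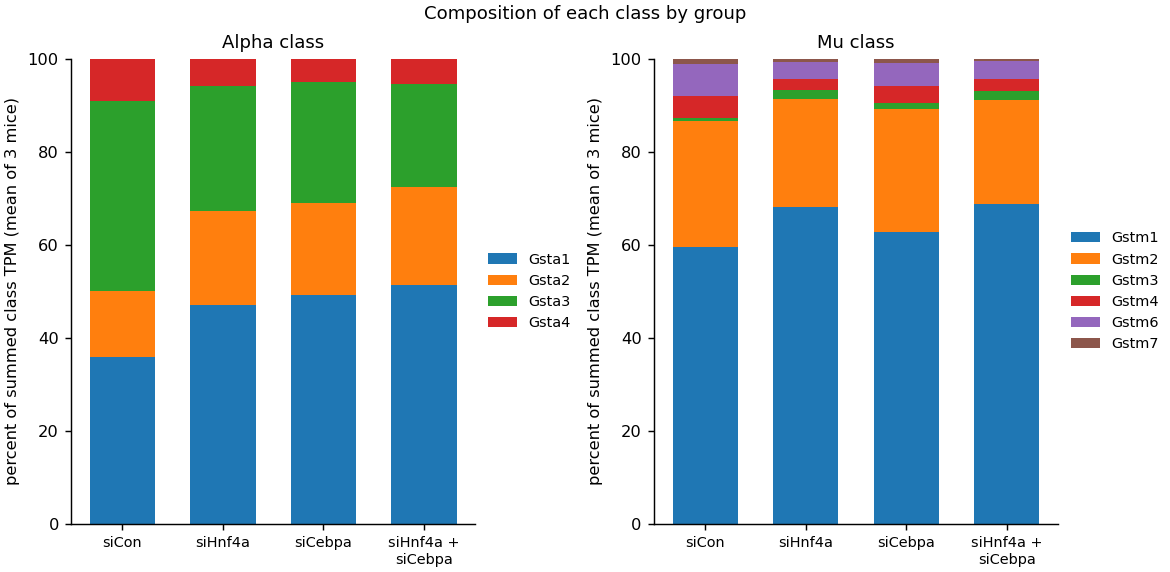
Mean percent of the summed class TPM (3 mice a group) held by each member, as stacked bars from 0 to 100%. Gsta3 goes from 40.7% of the alpha class in siCon to 22.1% in the double knockdown, and Gstm1 is the largest part of the mu class in all groups (59.5% to 68.8%).

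The double knockdown was set beside each single knockdown. Against siHnf4a no member passed in edgeR, in DESeq2 or in limma-trend on TPM, 0 of 10 had an unadjusted p under 0.05, and the differences ran from −0.22 to 0.22. In this comparison 0.00663% of all genes tested, that is 1 gene, Cebpa, were lower. The alpha sum differed by 0.08 ± 0.22 (95% interval −0.41 to 0.56) and the mu sum by −0.09 ± 0.17 (−0.47 to 0.29), so additions of more than 0.56 and 0.29 log2 units lie outside these intervals. The interval of Gsta1 ran from −0.58 to 1.01 and that of Gstm1 from −0.41 to 0.22. Cebpa itself was 1.19 ± 0.12 lower in the double knockdown than in siHnf4a (edgeR adjusted p = 0.0188).

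Against siCebpa the double knockdown was higher for Gstm1 (1.07 ± 0.15, edgeR adjusted p = 0.00106) and Gstm3 (1.51 ± 0.26, 0.00454), that is 2 of 10 members beside 6.51% of all genes tested. The mu sum was higher by 0.97 ± 0.17 (edgeR adjusted p = 0.00509). The alpha sum differed by 0.66 ± 0.22 and did not pass (adjusted p = 0.0753). It passed with the mouse as a block (0.68 ± 0.11, adjusted p = 0.0012), where 9 of 10 members passed beside 13% of all genes. Gstm7 was the exception (0.08 ± 0.16, edgeR adjusted p = 0.774 with the block). Without siCebpa of mouse 1 the count was 4 in place of 2, with Gsta3 and Gstm2 added, and the alpha sum passed without siCebpa of mouse 3 (0.90, adjusted p = 0.0337).

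Between the single knockdowns, siHnf4a was higher than siCebpa for Gsta3 (0.67 ± 0.20, edgeR adjusted p = 0.0411), Gstm1 (1.17 ± 0.15, 0.000617), Gstm3 (1.40 ± 0.26, 0.00564) and Gstm4 (0.56 ± 0.15, 0.0313), beside 7.51% of all genes tested. The mu sum was higher by 1.06 ± 0.17 (edgeR adjusted p = 0.00278), and the alpha sum differed by 0.59 ± 0.22 without passing (0.0991). In the blocked fit 9 of 10 members passed beside 14.9% of all genes, and the alpha sum passed (0.60 ± 0.11, adjusted p = 0.00217). The count was 2 without siHnf4a of mouse 1, without siHnf4a of mouse 3 or without siCebpa of mouse 2, the calls of Gsta3 and Gstm4 being the ones lost. Gsta3 also lost its call without siCon of mouse 2, siHnf4a of mouse 2, siCebpa of mouse 3 or the double knockdown of mouse 2 (adjusted p up to 0.141). The alpha sum passed without siCebpa of mouse 3 (0.83, adjusted p = 0.04).

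The interaction compared the double knockdown with the sum of the single changes. Its estimate was negative for 10 of 10 members, from −0.52 for Gstm6 to −2.03 for Gstm3. For the class sums the double knockdown value was 2.19 (alpha) and 2.03 (mu), beside 3.63 and 3.18 for the sum of both single changes. For Gsta1 the single changes added to 4.64 log2 units, beside 2.78 observed. For Gstm1 they added to 3.52, beside 2.25 observed. The median was −1.07 over the members and −0.01 over all genes tested. How many of all genes had a negative estimate was not counted. No member passed in edgeR, where 0.0331% of all genes tested passed with a negative interaction. An unadjusted edgeR p under 0.05 was found for 7 of 10 members, and DESeq2 called 5. The share of all genes was not counted for either. The alpha sum gave −1.45 ± 0.31 (edgeR adjusted p = 0.152) and the mu sum −1.15 ± 0.24 (0.14). In the blocked fit 7 members passed, beside 1.83% of all genes, and so did the alpha sum (−1.41 ± 0.15, adjusted p = 0.00336) and the mu sum (−1.15 ± 0.20, 0.0177). The weaker loss of Cebpa in the double knockdown, given above, moved with this result, and its part in it was not tested.

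**Figure D5:**
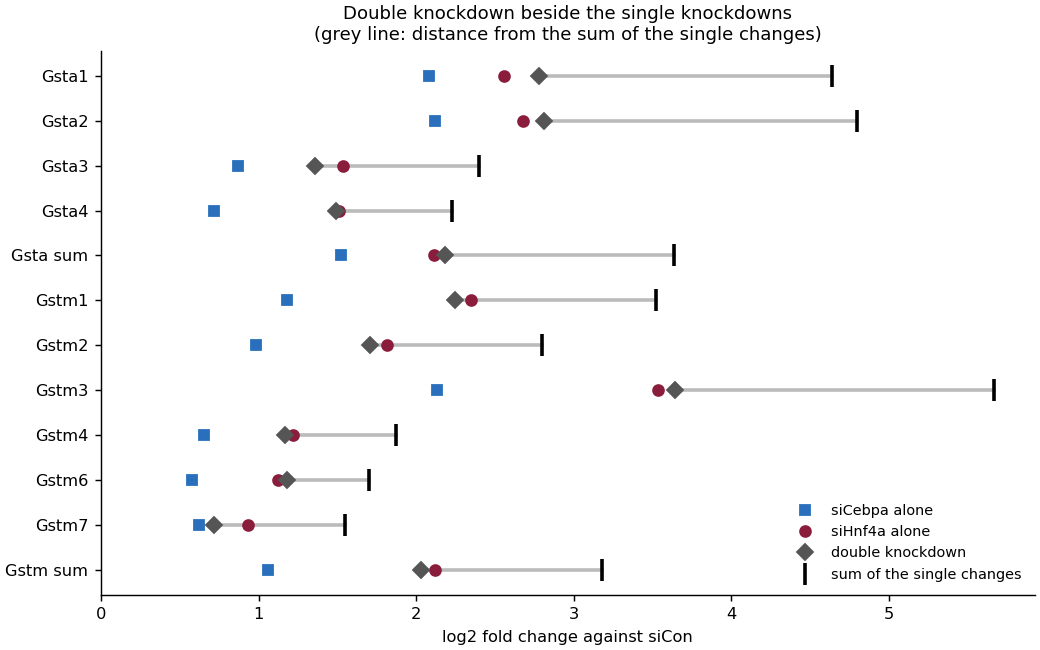
Log2 fold change against siCon of each member and class sum after siCebpa alone, siHnf4a alone and the double knockdown, with a tick at the sum of the single changes. The double knockdown lies next to siHnf4a (2.25 beside 2.35 for Gstm1) and 0.52 to 2.03 log2 units short of the sum for the 10 members.

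The mice kept their order across groups for several members. Gsta1, Gsta2 and Gsta4 were highest in mouse 3 in 4 of 4 groups, and Gsta1 and Gsta2 were lowest in mouse 1 in 4 of 4. Gsta3, Gstm2, Gstm6 and Gstm7 were highest in mouse 1 in 4 of 4 groups. Within a mouse the change of Gsta1 in siHnf4a was 2.41, 2.69 and 2.61 log2 units in mice 1, 2 and 3, that of Gstm1 was 2.05, 2.28 and 2.78, and that of Gstm3 was 3.24, 3.25 and 4.36. The largest change of the mu genes Gstm1, Gstm2, Gstm3 and Gstm6 in siHnf4a was therefore in mouse 3.

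Other annotated genes of the classes were read as well. Gm3776 stood at 131, 150 and 255 TPM in siCon and at 560, 809 and 1138 TPM in siHnf4a, and rose by 2.23 ± 0.39 in siHnf4a (edgeR adjusted p = 0.00418), 1.81 ± 0.39 in siCebpa (0.0284) and 2.40 ± 0.39 in the double knockdown (0.00271). Gm10639 went from 6.23, 9.36 and 15.4 TPM in siCon to 56.8, 103 and 149 TPM in siHnf4a and rose by 3.29 ± 0.45 (edgeR adjusted p = 0.000994). In coding sequence Gm3776 is nearest to Gsta1 (99.7% identical) and Gm10639 to Gsta2 (98.5%), so their levels depend on how reads were split. Gstm5, which lies before the mu block on the opposite strand (chr3:107895821-107898686), stood at 45.2, 33.2 and 36.3 TPM in siCon and at 50.1, 46.2 and 43.3 TPM in siHnf4a. It did not pass in siHnf4a (0.29 ± 0.15, edgeR adjusted p = 0.234), siCebpa (0.45 ± 0.15, 0.116) or the double knockdown (0.28 ± 0.15, 0.248), passed in all 3 with the block (0.0183, 0.00442 and 0.0209), and its coding sequence is 71.4% identical to that of Gstm1.

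Genes around the transferases were read in 5 lists, chosen with earlier results of these data known and therefore no independent evidence. Over all genes tested, 7.24%, 2.94% and 6.9% rose and 7.29%, 1.72% and 7.13% fell in siHnf4a, siCebpa and the double knockdown against siCon, and in the blocked fit 14.5%, 8.73% and 13.8% rose and 15.5%, 8.11% and 15.6% fell. The counts of each list stand beside these shares, and no list was tested as a set. Of the other transferase classes, 2 of 13 tested genes rose in each comparison with siCon (all genes 7.24%, 2.94% and 6.9%), with a median of 0.33 under siHnf4a, 0.14 under siCebpa and 0.16 in the double knockdown. Gstp1, of the pi class, rose by 0.58 ± 0.14, 0.69 ± 0.14 and 0.62 ± 0.14 (edgeR adjusted p = 0.0218, 0.0265 and 0.0159). Its near-identical neighbour Gstp2 rose by 1.07 ± 0.26 in siCebpa (0.0418) and 0.99 ± 0.26 in the double knockdown (0.0264). Mgst1, a membrane-bound transferase, rose by 0.44 ± 0.12 in siHnf4a (0.0367). Blocking on the mouse, 7, 3 and 4 of the 13 rose and 1 fell in the double knockdown.

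Of 16 genes of glutathione synthesis and turnover, 7 rose under siHnf4a (7.24% of all genes tested), and 6 each under siCebpa (2.94%) and in the double knockdown (6.9%). Gclc, the catalytic subunit of the first enzyme of glutathione synthesis, rose by 2.01 ± 0.17, 1.21 ± 0.16 and 2.04 ± 0.17 (edgeR adjusted p = 4.18e-05, 0.0038 and 3.98e-05). Slc7a11, which imports cystine, rose by 1.71 ± 0.27, 1.12 ± 0.27 and 1.94 ± 0.27, Gss, the second enzyme of the synthesis, by 1.22 ± 0.10, 0.77 ± 0.10 and 1.40 ± 0.10, and Gsr, which reduces oxidised glutathione, by 1.15 ± 0.09, 0.90 ± 0.09 and 1.18 ± 0.09, all past the threshold. The list medians were 0.37, 0.34 and 0.28. In the blocked fit 8 rose under siHnf4a, 7 rose and 1 fell under siCebpa, and 8 rose in the double knockdown.

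The 13 tested genes of mercapturate formation and conjugate export were called in both directions: 2 rose and 2 fell in siHnf4a (all genes 7.24% and 7.29%), 1 fell in siCebpa (1.72%), and 2 rose and 3 fell in the double knockdown (6.9% and 7.13%), with medians of −0.01, 0.14 and −0.0041. In the blocked fit 4 rose and 3 fell, 2 rose and 1 fell, and 4 rose and 4 fell. Abcc1, an exporter of glutathione conjugates, rose by 0.74 ± 0.22 in siHnf4a (edgeR adjusted p = 0.0489) and 0.93 ± 0.22 in the double knockdown (0.0184). Abcg2, another exporter, fell under siHnf4a by 0.84 ± 0.12 (0.0013) and with both siRNAs by 0.85 ± 0.12 (0.00113). Anpep, an aminopeptidase, fell in all 3 comparisons (−0.66 ± 0.16, −1.05 ± 0.16 and −1.11 ± 0.16, edgeR adjusted p = 0.0182, 0.00696 and 0.00118). Nat8, which N-acetylates cysteine conjugates, fell by 2.17 ± 0.57 in the double knockdown (0.0279).

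Of 17 regulators, 5 rose and 2 fell in siHnf4a (all genes 7.24% and 7.29%), 4 fell in siCebpa (1.72%), and 4 rose and 3 fell in the double knockdown (6.9% and 7.13%), with medians of 0.18, −0.12 and 0.18. In the blocked fit 6 rose and 4 fell, 6 fell, and 6 rose and 4 fell. Nr1i2, the pregnane X receptor, fell by 1.16 ± 0.25 in the double knockdown (edgeR adjusted p = 0.0116). Ahr, the dioxin receptor, rose by 1.15 ± 0.29 in siHnf4a (0.0224). Bach1, a repressor of NRF2 target genes, rose under siHnf4a by 1.10 ± 0.17 (0.00167) and with both siRNAs by 1.13 ± 0.17 (0.00138). Nfe2l2 itself, named after its values were seen, was 0.50 ± 0.12 higher in siHnf4a (0.0191), 0.49 ± 0.12 lower in siCebpa (0.0458) and differed by 0.31 ± 0.12 in the double knockdown without passing (0.114). Keap1, named in the same way, was 0.40 ± 0.11 higher in siHnf4a (edgeR adjusted p = 0.0392).

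Of 19 other enzymes known as NRF2 targets, 12 rose in each comparison (all genes 7.24%, 2.94% and 6.9%), and 2 fell in siHnf4a (7.29%) and in the double knockdown (7.13%). The medians were 0.62, 0.54 and 0.71 for siHnf4a, siCebpa and both siRNAs. Cbr3, a carbonyl reductase, rose by 2.65 ± 0.20, 1.78 ± 0.20 and 2.84 ± 0.20 (edgeR adjusted p = 4.01e-05, 0.00175 and 2.33e-05). Srxn1, which reduces sulfinylated peroxiredoxins, rose by 1.99 ± 0.14, 1.21 ± 0.14 and 2.08 ± 0.14. Nqo1, a quinone reductase, rose by 1.76 ± 0.14, 0.96 ± 0.14 and 1.78 ± 0.14, and Ugdh, which supplies UDP-glucuronate, by 1.48 ± 0.20, 0.90 ± 0.19 and 1.49 ± 0.20. The 2 that fell, named after their values were seen, were Hmox1, heme oxygenase 1 (−0.70 ± 0.13 in siHnf4a, edgeR adjusted p = 0.00521), and Ftl1, the ferritin light chain (−1.34 ± 0.14, 0.000193). Ftl1 was 0.64 ± 0.14 higher in siCebpa (0.0284). In the blocked fit 14 of the list rose and 3 fell in siHnf4a, 15 rose and 1 fell in siCebpa, and 14 rose and 2 fell in the double knockdown.

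The genes with the pattern nearest to each class sum were found among 9038 genes with a mean of at least 10 CPM. The measure was the root-mean-square difference over the 12 libraries of log2 CPM relative to the siCon mean. Nearest to the alpha sum were Gclc (0.25 log2 units), Blvrb (0.30), Srxn1 (0.31), Cyp2a4 (0.42) and Cpb2 (0.44). Nearest to the mu sum were Entpd5 (0.19), Srxn1 (0.22), Cyp2a4 (0.23), Gclc (0.30) and Slc7a11 (0.30). Srxn1, Cyp2a4 and Gclc are on both lists.

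Promoters of 250 bases before to 50 bases after the start were read for 9 members (14 promoters in RefSeq, GRCm38.p6), Gsta4 not being in the table. The core of the antioxidant response element bound by NRF2, TGACNNNGC on either strand, was in 2 of the 14, beside 12.4% of 32851 promoters. These 2 matches are shown with 20 bases on each side and the word in capitals, positions being counted from 0 at the start base.
Gsta3, −121 to −113: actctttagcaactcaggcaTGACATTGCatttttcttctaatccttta
Gstm7, −129 to −121: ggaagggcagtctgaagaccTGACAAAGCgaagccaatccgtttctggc
The HNF4A word CAAAGTCCA was in 0 of the 14 and in 0.475% of all promoters. The C/EBP word TTGCNNAA was in 2, those of Gsta3 and Gstm2, and in 10.8% of all promoters. A match is only a run of letters in the window, and a window without one holds no statement about the factor.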

How the data were processed

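RNA was measured in 12 libraries of primary mouse hepatocytes. The authors deposited an estimated count per Ensembl gene, not normalised, and a TPM value per gene, which is scaled by transcript length and library. Trim Galore 0.6.4, kallisto 0.4.6 and build GRCm38.p6 are named per the submitters' processing notes. The annotation, the strand setting and any filters were not given in the sources used here. Of 55385 identifiers, 55144 matched GENCODE M21.

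Counts were rounded and tested with edgeR 4.0.16 (filterByExpr, TMM, quasi-likelihood, 4 group means, all 12 libraries, 8 residual degrees of freedom, two-sided, Benjamini-Hochberg over 15090 genes, 40295 not tested). The 10 members were all tested. The number in each library's title was read as 1 of the 3 mice of the design text. Over 18 pairs with the same number, residuals correlated at 0.17 to 0.77 (Pearson), and each of 12 libraries was closest to one of its own number. Alternatives were mouse as a block, DESeq2 1.42.0, RLE size factors, other filters, only the compared groups, limma-trend (limma 3.58.1) on log2(TPM + 1), sums over all annotated genes of a class and, chosen after seeing the data, over Gsta1 and its near copies, and leaving out each library. The test was checked on simulated data.

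Members and lists were chosen with earlier results of these data known. Named were all members, Hnf4a, Cebpa, up to 4 called genes a list by size of change, the 5 genes nearest each class sum, other annotated Gsta and Gstm genes, and the highest and lowest hepatocyte marker. The values of 1 regulator named by this rule are not reported here. Words of 31 bases, the default of kallisto, and coding sequences were read from GENCODE M21 transcripts, taking the longest coding transcript of each gene.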

Additional observations from a re-analysis of the deposited data

Results flagged for a closer look

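The interaction, which asks whether the effect of siCebpa was the same with and without siHnf4a, was negative with the mouse as a block (edgeR quasi-likelihood, adjusted over all genes tested). It was −1.41 for the alpha sum (adjusted p = 0.00336) and −1.15 for the mu sum (0.0177). Among members it was −1.81 for Gsta1 (0.000329), −1.92 for Gsta2 (0.0011), −1.05 for Gsta3 (0.00638), −0.72 for Gsta4 (0.0332), −1.28 for Gstm1 (0.0108), −1.11 for Gstm2 (0.0225) and −2.05 for Gstm3 (0.00755). In edgeR without the block none of these passed with the default filter, while Gstm1 and Gstm3 passed with no filter on low counts (−1.26, adjusted p = 0.0169, and −2.01, 0.0214), as did Gstm1 with the stricter filter (0.0497). DESeq2 without the block called Gsta1, Gsta2, Gsta3, Gstm1, Gstm3 and both sums. Cebpa was less reduced in the double knockdown than in siCebpa, which moved with these values and was not tested as their cause.

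Gstm7 was higher in siCebpa than in siCon in 3 of 3 mice (0.59, 0.81 and 0.32 log2 units of CPM) and lower in the double knockdown than in siHnf4a in 3 of 3 (−0.10, −0.03 and −0.60). Every mouse thus had one sign in the first comparison and the other in the second, a contrast not tested by this reading. The same held for the signs of Gsta3 and Gsta4. Their values in the second comparison were −0.08, −0.14 and −0.29 for Gsta3 and −0.02, −0.01 and −0.02 for Gsta4. These CPM were not TMM-scaled, and the TMM factors of the libraries ran from 0.947 to 1.038. The sign of values as near 0 as those of Gsta4, or of Gstm7 in mouse 2, can thus depend on the scaling. How many of all genes showed such opposite signs was not counted. The interaction of Gstm7 did not pass with the block (−0.85 ± 0.23, edgeR adjusted p = 0.0671).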

How the results depend on the processing

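With the mouse as a replicate block, the pairing given by the labels, 9 members passed in the double knockdown against siCebpa and 9 in siHnf4a against siCebpa, the alpha sum passed in both (0.68 and 0.60), and in the interaction 7 members passed, as did the alpha sum (−1.41) and the mu sum (−1.15). The block ended no call. Gstm6 in the double knockdown against siHnf4a changed sign to −0.0032. With DESeq2 the alpha sum passed against siCebpa in the double knockdown (0.66, adjusted p = 0.0213) and in siHnf4a (0.58, 0.0439), and in the interaction 5 members, the alpha sum (−1.45, 0.000806) and the mu sum (−1.15, 0.000532) passed. The interaction count was 2 with no filter on low counts and 1 with the stricter filter. The share of all genes passing was counted only for edgeR with the default filter and all libraries, without and with the block. With only the compared groups, 1 member passed in siCebpa against siCon and 2 in siHnf4a against siCebpa, and the siCebpa calls of the alpha sum (1.54, 0.0559) and mu sum (1.07, 0.0912) were lost. This setting was not run for the interaction, which needs all 4 groups. Under RLE size factors, limma-trend on log2 TPM and the sums over all annotated genes of a class, no class sum changed its call or direction. limma-trend ended the siCebpa calls of Gsta3 (0.0614) and Gstm4 (0.131), so that 4 members passed there.

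Leaving out 1 library at a time, the members passing ranged from 2 to 6 in siCebpa against siCon, from 2 to 4 in the double knockdown against siCebpa and from 2 to 5 in siHnf4a against siCebpa. The mu sum in siCebpa ranged from 0.85 to 1.22, and the alpha sum from −0.0599 to 0.26 in the double knockdown against siHnf4a, from 0.53 to 0.90 in the double knockdown against siCebpa and from 0.40 to 0.83 in siHnf4a against siCebpa. Members changed sign mostly in the double knockdown against siHnf4a, where all values were near 0: Gsta1 (−0.0153 to 0.54), Gsta2 (−0.0809 to 0.40), Gsta4 (−0.32 to 0.25), Gstm3 (−0.13 to 0.25), Gstm4 (−0.18 to 0.0137), Gstm6 (−0.24 to 0.24) and Gstm7 (−0.48 to 0.0074). Gstm6 also did so in siCebpa (−0.026 to 1.01) and in the interaction (−0.96 to 0.085), and Gstm7 in the double knockdown against siCebpa (−0.16 to 0.33). Of 40 class shares, 9 moved by more than 1 SD when taken from counts in place of TPM. The causes were not tested. Of the members, Gstm3 and Gstm7 had the lowest counts, with 47.2 and 72 estimated counts in their lowest libraries. The part of depth in their results was not tested.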
